A study of Mus musculus with 6 samples.

Results

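Lipoprotein lipase and fatty acid handling were followed through 10 genes (Lpl, Gpihbp1, Cd36, Fabp4, Fabp5, Pparg, Angptl4, Vldlr, Plin2 and Acsl1), taken by symbol from the 31054 features measured in each single-cell library of aged mouse lung. The 3 libraries labelled p16-DTR came from C57BL/6 males of 21 months carrying p16-CreERT2 and R26-LSL-DTR, in which a Cre driven by the p16 promoter switches on a receptor for diphtheria toxin. The 3 control libraries came from males of the same age that carried p16-CreERT2 alone. Both groups received tamoxifen for 5 days and, 2 weeks later, diphtheria toxin for 5 days, and were left to recover for 2 weeks. Each library combined 20000 CD45-negative with 9000 CD45-positive sorted cells of 1 lung, so a cell type's share of a library depends on this mixing.

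Lipoprotein lipase, the product of Lpl, releases fatty acids from the triglycerides of circulating lipoproteins. The enzyme works on the luminal face of capillaries, where GPIHBP1 on endothelial cells carries and anchors it, while ANGPTL4 inhibits it and the receptor encoded by Vldlr binds triglyceride-rich particles beside it. CD36 takes up the released fatty acids, the binding proteins FABP4 and FABP5 carry them inside the cell, ACSL1 joins them to coenzyme A, and perilipin 2 (Plin2) coats the droplets in which they are stored. PPARγ (Pparg) is a lipid-sensing transcription factor with many of these genes among its known targets. In the lung, alveolar macrophages depend on it and clear lipid-rich surfactant.

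The libraries held 13482 to 17332 barcodes and 254200305 to 344421685 UMIs (unique molecular identifiers, each standing for 1 captured transcript). Between 77.1% and 82.1% of the retained cells of a library were assigned to 1 of 31 cell types by marker genes, none of which was a member. Any pair of libraries shared 59 to 94 barcodes, at most 0.586% of the smaller library. Cdkn2a, which encodes p16, stood at 7.10, 8.57 and 7.31 UMIs per 1e6 across the libraries labelled p16-DTR, against 1.15, 2.60 and 2.84 in controls. That direction goes against the labels and was not called (log2 fold change 1.86, edgeR adjusted p 0.126). Directions below therefore hold for the libraries as labelled. Levels are counts per 1e6 UMIs of the same cells (CPM), averaged as mean ± SD over 3 libraries, and a gene is called when the edgeR quasi-likelihood test of sums per library gives an adjusted p under 0.05 over all genes tested in that cell type.

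The lipase gene Lpl (ENSMUSG00000015568) spans chr8:68880491-68907448 on the plus strand of GRCm38, and its endothelial partner Gpihbp1 (ENSMUSG00000022579) spans chr15:75596628-75599481, also on the plus strand. Cd36 (ENSMUSG00000002944) lies at chr5:17781690-17888801 on the minus strand and Fabp5 (ENSMUSG00000027533) at chr3:10012548-10016607 on the plus strand. Counts are per gene, over all transcripts of each locus.

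In control lungs the members divided among different compartments. Lpl was highest in alveolar macrophages, at 1879 ± 74.3 CPM (SD, n = 3), clear of every other type. Interstitial macrophages followed at 257 ± 105, then general capillary endothelial cells at 163 ± 36.3 and adventitial fibroblasts at 159 ± 19.4, and each of these overlapped its neighbour among the 3. Alveolar macrophages were few, with 14 to 28 cells per library. In control libraries general capillary cells, the most abundant endothelial type, held 50.0% ± 18.2 of all Lpl UMIs in assigned cells, against 6.48% ± 2.24 in alveolar macrophages. Adventitial fibroblasts held 19.2% ± 11.8.

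Gpihbp1, the endothelial anchor of the lipase, was highest in endothelial cells. Its control level was 857 ± 63.3 in general capillary cells, 353 ± 29.6 in venous, 218 ± 62.8 in arterial and 130 ± 18.7 in lymphatic endothelial cells, and 46.3 ± 2.48 in aerocytes, the capillary cells specialised for gas exchange. The first 4 of these did not overlap their next neighbour in the order. Cd36, the fatty acid translocase, was at 2913 ± 151 in general capillary cells and 2468 ± 24.8 in aerocytes, without overlap. It was also high in venous cells, nonclassical monocytes and alveolar type 2 cells, between 1171 and 1434, where neighbours overlapped. Aerocytes thus had Cd36 near the level of general capillary cells with an Lpl level of 8.12 ± 2.50 CPM, against 163 ± 36.3.

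The 2 intracellular carriers differed from each other. Fabp5 was highest in alveolar type 2 cells, the surfactant producers, at 781 ± 120. Fabp4 was highest in arterial endothelial cells, where the control libraries stood at 1207, 147 and 826, so its level there is not well set, followed by venous cells at 308 ± 62.2. Pparg formed a top group of type 2 innate lymphoid cells (809 ± 144), nonclassical monocytes (773 ± 70.5) and alveolar macrophages (701 ± 150), whose control values overlapped. Arterial cells were next at 133 ± 43.0. The innate lymphoid level rested on 14, 10 and 10 cells in the control libraries. Close to the limits of assignment to a type lay 52.3% of arterial cells. Plin2 was highest in alveolar macrophages (1287 ± 313) and then in nonclassical monocytes (463 ± 24.2) and classical monocytes (303 ± 15.9).

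Mesenchymal cells carried the inhibitor and the receptor. Angptl4 was highest in alveolar fibroblasts (199 ± 31.6) and pericytes (126 ± 63.0), which overlapped. Vldlr was at 122 ± 10.3 in adventitial fibroblasts, 117 ± 4.44 in alveolar fibroblasts and 115 ± 8.93 in smooth muscle, which also overlapped, and at 55.6 ± 7.49 in alveolar type 1 cells. Alveolar fibroblasts held 87.3% ± 0.498 of Angptl4 UMIs and 74.8% ± 2.69 of Vldlr UMIs in control libraries. Acsl1 was at 118 ± 0.618 in ciliated cells, 115 ± 58.2 in neutrophils and 110 ± 42.1 in interstitial macrophages, where neighbours overlapped. It was above 10 CPM in 27 of 31 types, as was Cd36, and Plin2 was in 29.

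**Figure D1:**
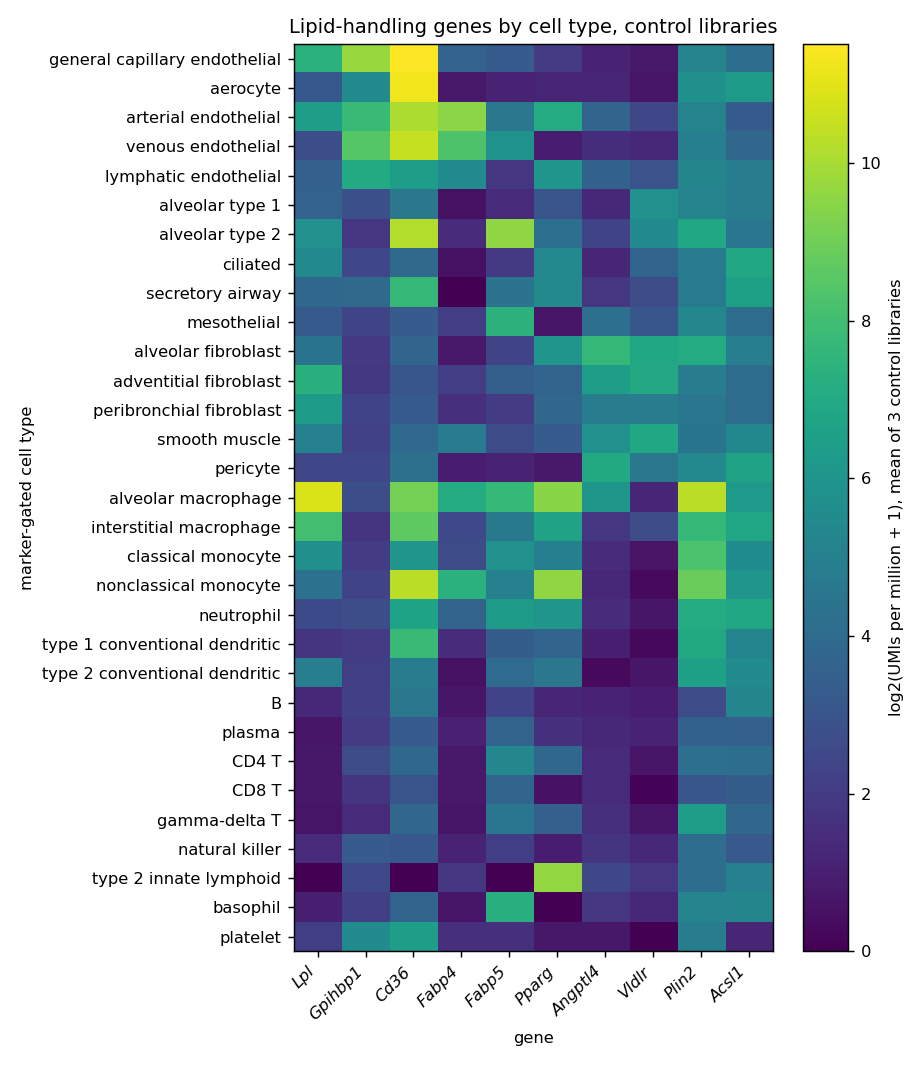
Colour gives log2 of CPM plus 1, averaged over the 3 control libraries, for the 10 genes (columns) in 31 marker-gated cell types (rows). Gpihbp1 and Cd36 are bright in endothelial rows, Lpl and Plin2 in alveolar macrophages, Fabp5 in alveolar type 2 cells, and Angptl4 and Vldlr in fibroblasts.

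Genes with the most similar profile over the 31 types were sought among 14885 genes by Pearson's r on log2 levels, as a description, since types of 1 library share its free RNA. For Lpl these were Hebp1 (r = 0.86), Pcyox1 (0.82) and Tesmin (0.80), each highest in alveolar macrophages. For Gpihbp1 they were Ptprb (0.98), which encodes an endothelial phosphatase, Cyyr1 (0.97) and Grrp1 (0.97). Cd36 was matched less closely, by Ceacam1 (0.86), Dram2 (0.83) and Smagp (0.82). The nearest profiles to Fabp4 were Bmx (0.75), Flt1 (0.69), a receptor for vascular growth factors, and Ptpn12 (0.68). Those nearest to Pparg were Eepd1 (0.72), Dgat2 (0.68), an enzyme of triglyceride synthesis, and Ptp4a1 (0.68).

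The group comparison asked whether these levels differed between the libraries labelled p16-DTR and controls. Over all retained cells, Lpl was at 99.5, 95.5 and 123 CPM across the libraries labelled p16-DTR, against 60.7, 76.1 and 61.9 in controls. Every library labelled p16-DTR lay above every control. The fitted log2 fold change was 0.73 (SE, the standard error, 0.13, edgeR adjusted p 0.126), so Lpl was not called, whereas DESeq2 called it (adjusted p 1.50e-04) and 12.8% of all genes. None of the 10 members was called by edgeR over all cells, as was none of all 21630 genes tested (0%). At an unadjusted p under 0.05 there was 1 member, Lpl, beside 23.3% of all genes. Acsl1 was the other member whose groups did not overlap over all cells, at 30.6 ± 0.984 against 34.2 ± 1.82 (SD, n = 3 each, edgeR adjusted p 0.303), beside 31.1% of all genes.

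Within cell types, 135 tests of a member could be made in the 17 types with at least 50 cells in every library. They gave 2 calls, Lpl higher in general capillary cells and Fabp5 lower in CD4 T cells, beside 0.582% of all 202110 tests. DESeq2 made 7 calls of a member as higher, which fell on 5 distinct members, and 1 as lower, beside 3.01% of its tests. Of the 135, 25 (18.5%) had an unadjusted p under 0.05, beside 14.5% of all tests. Lpl had 6 of these 25 in its 14 types, all 6 higher in the libraries labelled p16-DTR.

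General capillary cells had Lpl at 312, 265 and 330.1 CPM across the libraries labelled p16-DTR, against 130.1, 202 and 158 in controls. The lowest of the former exceeded the highest of the latter. Means were 302 ± 33.5 and 163 ± 36.3 (SD, n = 3 each), and edgeR gave a log2 fold change of 0.93 ± 0.16 (SE, adjusted p 0.0463). In this type 1.28% of 15945 genes were called and the groups of 29.1% did not overlap, in either direction. The call was made in 1 of the 6 fits without 1 library, that without control replicate 2 (log2 fold change 1.12). Without p16-DTR replicates 1, 2 and 3 the adjusted p was 0.119, 0.0542 and 0.137, and without control replicates 1 and 3 it was 0.102 in both. The log2 fold change was at least 0.79 in all 6.

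The same cells were then counted by their number of Lpl UMIs. Cells with 10 or more Lpl UMIs made up 16.4%, 13.7% and 18.9% of general capillary cells across the libraries labelled p16-DTR, against 2.87%, 8.68% and 5.48% in controls. Cells with none made up 25.4% ± 2.07 and 39.3% ± 5.77. The groups did not overlap at either end, and in the middle class of 2 to 4 UMIs they did (25.5% and 25.6%). After each cell was thinned to 5000 UMIs, 58.2% ± 3.10 of cells against 41.5% ± 5.08 held an Lpl UMI (74.6% and 60.7% without thinning). The exact two-sided permutation p was 0.1, the smallest that 3 libraries against 3 allow. Thinning left out 966 and 760 cells with fewer UMIs, and median depths were 15709 and 15395 UMIs. The same share was 0.620% and 0.397% in B cells (2.33% and 1.17% without thinning, median depths 13636 and 12488), a type that should lack the gene.

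**Figure D2:**
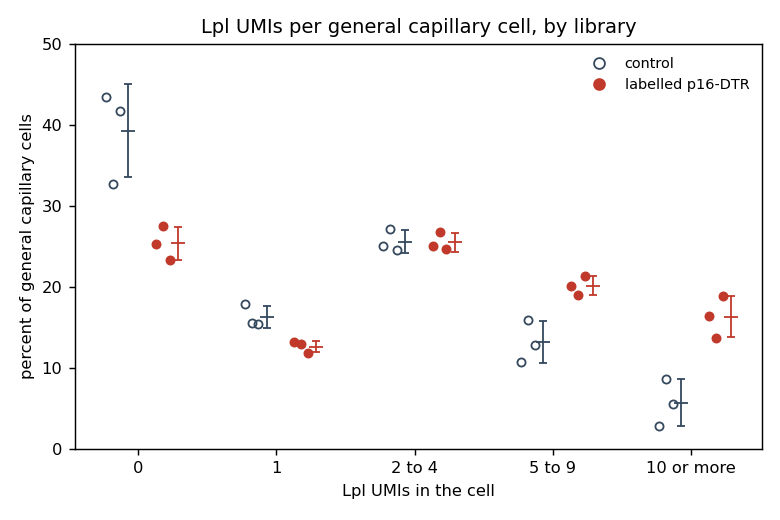
Points give, for each library, the percent of general capillary cells with 0, 1, 2 to 4, 5 to 9 or 10 or more Lpl UMIs, and bars the mean ± SD of 3 libraries. Filled points (labelled p16-DTR) lie below open points (control) at 0 and 1 UMI and above them from 5 UMIs on.

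Both subsets of the capillary population had the difference. Among the 17552 general capillary cells that scored higher on arterial than on venous markers, Lpl was at 319 ± 36.4 against 172 ± 40.5 CPM. Among the 3086 that scored higher on venous markers it was at 210.4 ± 7.83 against 109 ± 12 (SD, n = 3 each). Neither comparison overlapped, beside 28.2% and 19.9% of genes in these cells. This split was made after the data were seen. Summed venous markers in general capillary cells ranged from 752 to 875 CPM across the libraries labelled p16-DTR, against 626 to 683 in controls, with 2 of 6 markers higher without overlap, and arterial markers overlapped. Alveolar macrophage markers, of the type richest in Lpl, summed to 1.38 to 2.63 against 0.568 to 1.61, with none of the 7 separating the groups and Siglecf at 0. The 6 adipocyte markers summed to 0.138 to 0.369 against 0.392 to 0.486. Pericyte markers summed to 6.78 to 8.26 against 9.66 to 10.48, without overlap, with 4 of 8 lower and none at 0. The part of these markers in the result was not tested. General capillary cells made up 32.5% ± 1.93 of assigned cells across the libraries labelled p16-DTR, against 26.0% ± 6.05 in controls, and held 72.4% ± 3.00 and 50.0% ± 18.2 of their Lpl UMIs.

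Partners of the lipase were not called in the same cells. Gpihbp1 in general capillary cells was at 986, 857 and 908 CPM across the libraries labelled p16-DTR, against 824, 930 and 817 in controls, which overlapped (log2 fold change 0.14, SE 0.08, edgeR adjusted p 0.342, and 0.09 to 0.21 without 1 library). Cd36 was at 2929, 2639 and 2569 against 3068, 2906 and 2765, also overlapping (−0.06, SE 0.08, adjusted p 0.660). Acsl1 was the only other member without overlap in this type, at 13.7 ± 0.685 against 16.8 ± 1.58 (−0.25, adjusted p 0.116).

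Other endothelial cells gave differences that were not called. In aerocytes Lpl was at 11.9, 11.1 and 19.5 against 7.39, 10.9 and 6.06 CPM (log2 fold change 0.80, SE 0.26, edgeR adjusted p 0.162), and without p16-DTR replicate 3 the log2 fold change was 0.53. Gpihbp1 there was at 63.3, 56.5 and 76.3 against 43.5, 48.3 and 47.1 (0.52, SE 0.10, adjusted p 0.0504, and 0.00157 by DESeq2). The groups overlapped for neither gene, beside 22.5% of aerocyte genes. Among the fits without 1 library, Gpihbp1 was called in that without p16-DTR replicate 2 (adjusted p 0.0293).

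In venous cells Gpihbp1 was at 561, 446 and 456 across the libraries labelled p16-DTR, against 324, 383 and 353 in controls, without overlap (0.48, SE 0.11, edgeR adjusted p 0.0885, DESeq2 0.00430), beside 18.3% of venous genes. Lpl in venous cells was at 17.2, 6.38 and 37.2 against 5.73, 5.69 and 5.54, from 250 UMIs, without overlap (1.81, SE 0.50, edgeR adjusted p 0.144, DESeq2 0.00781). Without p16-DTR replicate 3 its log2 fold change was 1.05. Alveolar macrophage markers in venous cells summed to 1.03 to 2.77 against 0.536 to 0.791 CPM, without overlap, with 1 of the 7 higher and Siglecf, Marco and Ear1 at 0. In aerocytes they summed to 1.17 to 3.15 against 0.682 to 1.25, which overlapped, with 1 of the 7 higher and Marco and Krt79 at 0. General capillary markers, of the type richest in Gpihbp1, summed in venous cells to 5986 to 7247 against 5698 to 6049 CPM. These overlapped, with 1 of 6 higher without overlap. In aerocytes the same markers summed to 5871 to 6000 against 5872 to 6282, which overlapped, with 1 of 6 (Pecam1) higher and 1 lower. Pecam1 is not particular to general capillary cells. Its mean over the 6 libraries was 2346 CPM in aerocytes, 1925 in general capillary and 1537 in venous cells. These sums therefore do not measure general capillary RNA alone. Close to the limits of assignment to a type lay 34.9% of venous cells. The part of these markers and cells in the result was not tested. Cd36 overlapped between groups in general capillary, aerocyte, venous and lymphatic cells. In lymphatic cells Lpl (12.4 ± 4.82 against 10.4 ± 1.55) and Gpihbp1 (132 ± 15.2 against 130.1 ± 18.7) overlapped too. Over the 14 types in which Gpihbp1 was tested, its log2 fold change was above 0 in 12. Its groups did not overlap in 3 of these types (21.4%), all higher in the libraries labelled p16-DTR and not all endothelial. Of all 135 member tests, which include these 3, 16.3% did not overlap. Over all genes the share ran from 14.7% in nonclassical monocytes to 29.1% in general capillary cells, among the tested types where it was counted. The endothelial junction genes Cdh5, Cldn5 and Pecam1 overlapped between groups in general capillary and venous cells. In aerocytes Cdh5 overlapped, as did Cldn5 (log2 fold change 0.18, edgeR unadjusted p 0.0373, adjusted p 0.261). Pecam1 there was at 2403 ± 44.8 against 2290 ± 72.4 without overlap (0.11, adjusted p 0.325).

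**Figure D3:**
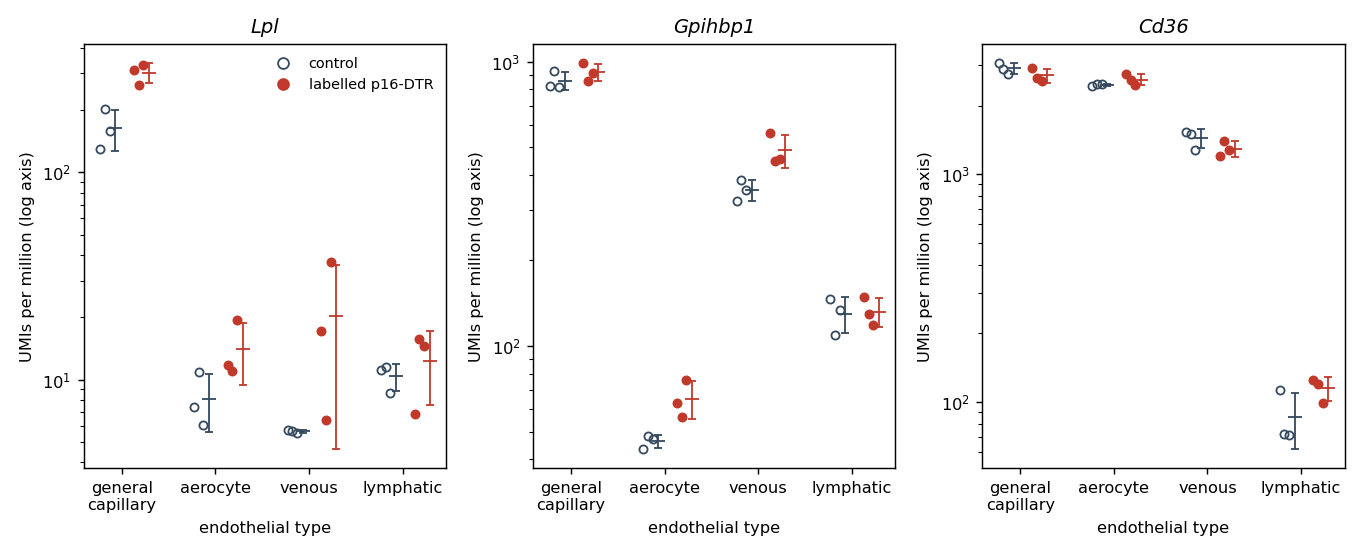
Points give CPM (log axes) of Lpl, Gpihbp1 and Cd36 in 4 endothelial types for each library, and bars the mean ± SD of 3 libraries. Lpl separates the groups in general capillary cells, aerocytes and venous cells and Gpihbp1 in aerocytes and venous cells, while Cd36 overlaps in all 4.

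Outside the endothelium, Lpl was next examined in pericytes, the mural cells of capillaries. Its level was 8.31, 12.3 and 15.2 CPM across the libraries labelled p16-DTR, against 2.37, 3.70 and 7.12 in controls. The groups did not overlap, beside 15.9% of pericyte genes, but the 66 UMIs behind these values came from 60 to 148 cells per library. The fitted log2 fold change was 1.39 (SE 0.43, edgeR adjusted p 0.172), not called, and it was not called in any of the 6 fits without 1 library, where it lay between 1.14 and 1.91. The share of pericytes with an Lpl UMI after thinning was 5.25% ± 3.06 against 2.11% ± 2.40 (13.6% and 5.87% without thinning), which overlapped (exact two-sided permutation p 0.2). Smooth muscle markers in these pericytes summed to 1925 to 2277 against 1304 to 1427 CPM, with 5 of 7 higher without overlap. General capillary markers summed to 290 to 383 against 284 to 359, which overlapped, with 1 of 6 lower and Glp1r at 0. Alveolar fibroblast markers summed to 709 to 760 against 759 to 886, which overlapped, with 2 of 7 higher and 3 lower. The part of these markers in the result was not tested.

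Alveolar type 2 cells had Lpl at 75.2, 77.8 and 66.0 against 61.4, 57.9 and 49.8 CPM, without overlap (0.44, SE 0.10, edgeR adjusted p 0.153), beside 17.9% of their genes. Alveolar fibroblasts had 22.4, 25.0 and 44.5 against 21.8, 19.9 and 19.4 (0.60, SE 0.23, edgeR adjusted p 0.175), beside 27% of their genes, and without p16-DTR replicate 3 the log2 fold change was 0.24. In 3 types the direction was the other way, each with overlap and none called. Classical monocytes had Lpl at 37.0 ± 6.72 against 53.9 ± 24.6 (−0.50, edgeR adjusted p 0.542). Peribronchial fibroblasts were at 63.5 ± 5.40 against 76.4 ± 12.7 (−0.22, adjusted p 0.471) and ciliated cells at 38.6 ± 6.19 against 44.4 ± 5.92 (−0.16, adjusted p 0.822). Over the 14 types in which Lpl was tested the log2 fold change was above 0 in 11, with a median of 0.33. Types of 1 library share its mouse and its free RNA, so such counts over types, for any member, are not of independent results.

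Alveolar macrophages, the cells richest in Lpl, were too few for the main test. Their Lpl was at 1400.3, 1185 and 1324 CPM across the libraries labelled p16-DTR, against 1963, 1850.0 and 1823 in controls. Every library labelled p16-DTR lay below every control, beside 10% of alveolar macrophage genes whose groups did not overlap. Fitted with the small types, the log2 fold change was −0.52 (SE 0.12, unadjusted edgeR p 0.00152, adjusted p 0.951). In mesothelial cells, the other small type with a fit for Lpl and no overlap, it went the other way, at 14.4, 30.6 and 22.2 against 9.62, 8.87 and 7.69 CPM from 93 UMIs (1.39, SE 0.36, unadjusted edgeR p 0.00247, adjusted p 0.777), beside 10.1% of their genes. The 7 markers of alveolar macrophages summed to 10647 to 11145 against 8537 to 12921 CPM and overlapped.

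**Figure D4:**
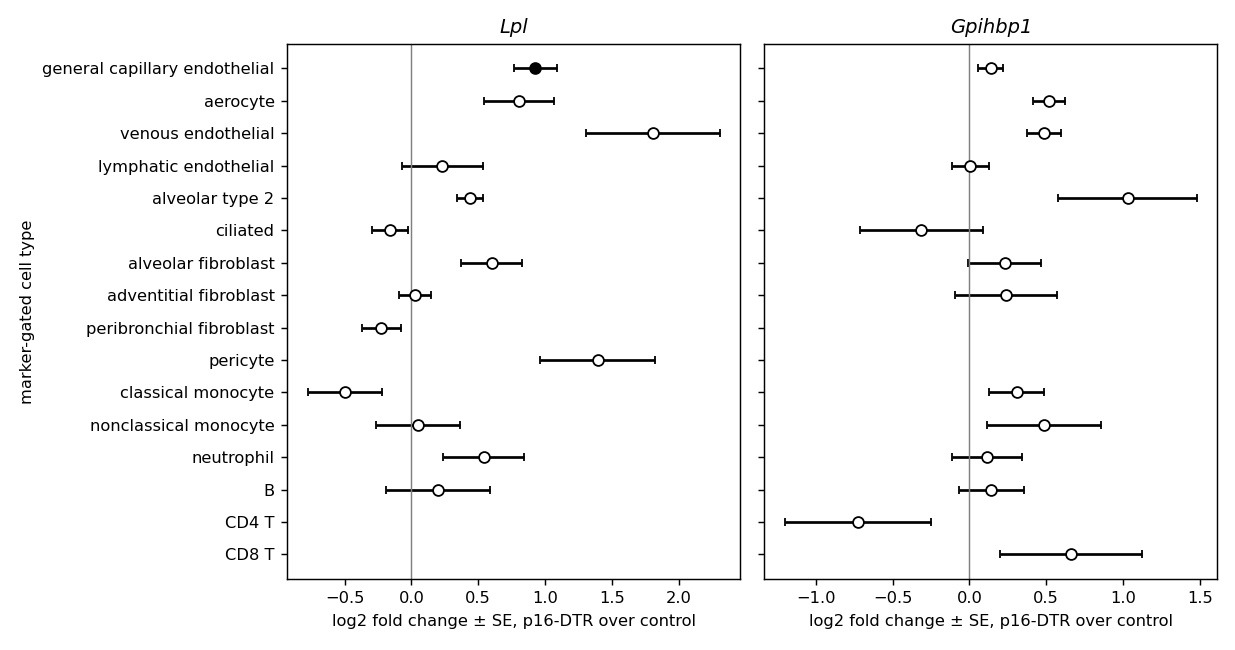
Points give the log2 fold change (libraries labelled p16-DTR over controls) and bars its standard error (SE) for Lpl and Gpihbp1 in each cell type where the gene was tested. Only Lpl in general capillary cells is filled, which marks an adjusted p under 0.05.

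Among the fatty acid carriers, Fabp5 fell in CD4 T cells. It was at 24.8, 22.8 and 22.1 CPM across the libraries labelled p16-DTR, against 35.9, 46.6 and 35.4 in controls, without overlap. The fitted log2 fold change was −0.78 (SE 0.13, edgeR adjusted p 0.0189), in a type where 2.95% of 12098 genes were called and the groups of 23.1% did not overlap. The call was lost without p16-DTR replicate 2 (adjusted p 0.0866) or 3 (0.0676).

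Markers of interleukin 17 producing cells, a subset of CD4 T cells, differed alongside. Il17a, Il17f, Il23r, Ccr6 and Il17re summed to 154 to 386 CPM across the libraries labelled p16-DTR, against 622 to 869 in controls, with 4 of the 5 lower without overlap and none at 0. Il17a was at 27.8 ± 30.3 against 278 ± 73.7 and Il17f at 2.00 ± 1.91 against 113 ± 4.23, while Il23r overlapped (185 ± 65.8 against 257 ± 53.0). The share of CD4 T cells with a UMI of any of the 5 was 40.4%, 27.4% and 22.5% against 49.8%, 49.1% and 41.8%. In the 1766 CD4 T cells without such a UMI, Fabp5 was at 22.0 ± 0.723 and 21.4 ± 0.434 (SD, n = 3 each), which overlapped. In the 1002 cells with one it was at 25.0 ± 3.76 against 57.1 ± 11.4, without overlap, beside 22.4% of genes in these cells. The genes that define this split differed between groups themselves, so cells with such a UMI may not be the same kind of cell in both. The split was made after the data were seen.

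**Figure D5:**
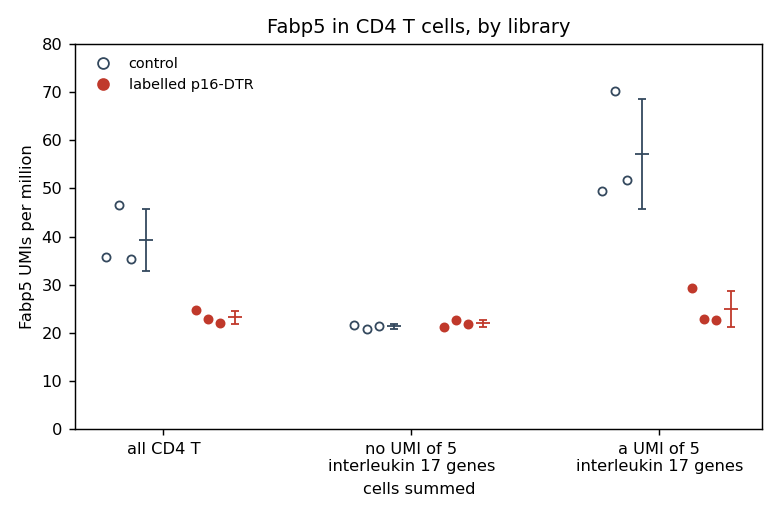
Points give Fabp5 CPM in each library for all CD4 T cells and for those without and with a UMI of 5 interleukin 17 genes, and bars the mean ± SD of 3 libraries. The groups separate in all CD4 T cells and in cells with such a UMI, and overlap near 22 in cells without one.

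Elsewhere Fabp5 was not called; in alveolar type 2 cells it was at 965 ± 255 against 781 ± 120 (0.36, edgeR adjusted p 0.411). Fabp4 in nonclassical monocytes was at 279.5, 213 and 316 CPM across the libraries labelled p16-DTR, against 131, 182 and 174 in controls. The groups did not overlap, beside 14.7% of genes of that type, where edgeR called 0 of 11189. The fitted log2 fold change was 0.73 (SE 0.17, edgeR unadjusted p 0.00220, adjusted p 0.439, DESeq2 adjusted p 0.0104). In venous cells Fabp4 overlapped (217.5 ± 136 against 308 ± 62.2).

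Cd36 was not called in any of 17 types, with a log2 fold change above 0 in 13 and an unadjusted p under 0.05 in 3, all higher. In alveolar type 2 cells it was at 1267, 1327 and 1326 CPM across the libraries labelled p16-DTR, against 1104, 1233 and 1176 in controls, without overlap (0.22, SE 0.07, edgeR adjusted p 0.284, DESeq2 0.0354). In B cells it was at 29.2, 34.6 and 28.8 against 18.2, 22.6 and 27.2, also without overlap (0.48, edgeR adjusted p 0.187), beside 21.4% of B cell genes.

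Pparg was not called in any of 13 types. In alveolar fibroblasts it was at 46.3, 37.9 and 32.0 against 87.2, 55.3 and 45.5 CPM, and the groups overlapped (−0.67, SE 0.24, edgeR adjusted p 0.157). Without control replicate 1 the log2 fold change was −0.35. In nonclassical monocytes, with far higher Pparg, the values were 829.8 ± 24.1 and 773 ± 70.5. Angptl4 was not called in any of 13 types either, with a log2 fold change above 0 in 4 and a median of −0.14. In 2 of the 13 types (15.4%) its groups did not overlap, both lower in the libraries labelled p16-DTR. Of all 135 member tests, these 2 included, 16.3% did not overlap. The share over all genes was 14.7% in nonclassical monocytes and 29.1% in general capillary cells, the ends among tested types where it was counted. In pericytes Angptl4 was at 242, 151 and 251 against 55.8, 178 and 143, with overlap (0.75, SE 0.28, edgeR adjusted p 0.312, and 0.41 without control replicate 1). In alveolar fibroblasts it was at 269 ± 91.7 against 199 ± 31.6.

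Vldlr in alveolar fibroblasts was at 144, 123 and 134 against 121, 117 and 112, without overlap (log2 fold change 0.22, SE 0.07, edgeR adjusted p 0.146). Plin2 in classical monocytes was at 348, 356 and 390 against 288, 319 and 300.2, without overlap, beside 18.5% of genes of that type (0.31, SE 0.07, edgeR adjusted p 0.285, DESeq2 0.0327). Acsl1 had a log2 fold change under 0 in 15 of 17 types, with a median of −0.13, and was not called in any (lowest edgeR adjusted p 0.116). In 5 of them its groups did not overlap, each time lower in the libraries labelled p16-DTR: general capillary cells, lymphatic cells (beside 17.7% of genes there), alveolar type 2 cells, alveolar fibroblasts and pericytes.

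The wider pathway was read from 8 lists holding 110 genes: lipase partners, lipoprotein receptors, fatty acid uptake and binding, acyl-CoA synthetases, lipid droplets, fatty acid oxidation and PPAR targets, lipid transcription factors and fatty acid synthesis. In 1254 tests within types, 1 gene was called higher and 6 lower (all genes 0.261% higher and 0.321% lower), and 17.4% had an unadjusted p under 0.05. Over all cells none of the 108 pathway genes tested was called. In general capillary cells, where Lpl was called, none of the 91 pathway genes tested was called, 21 had an unadjusted p under 0.05 (23.2% of all genes of that type did), and the median log2 fold change was 0.03 against −0.01 over all genes.

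Of the 7 pathway calls, 5 were lower in CD4 T cells, among 74 pathway genes tested there, beside 1.75% of all CD4 T genes called lower. Acsl4, which activates polyunsaturated fatty acids, was at 124 ± 4.54 against 187 ± 17.7 CPM (−0.61, edgeR adjusted p 0.00779). Gpat3, an acyltransferase of glycerolipid synthesis, was at 3.64 ± 0.684 against 11.2 ± 1.55 (−1.66, adjusted p 0.00886), and both calls held in all 6 fits without 1 library. Ppard, a nuclear receptor related to Pparg, was at 39.7 ± 3.28 against 58.5 ± 3.44 (−0.58, adjusted p 0.0181). Furin, a protease that processes lipase inhibitors among many substrates, was at 152 ± 52.0 against 357 ± 22.0 (−1.25, adjusted p 0.0189). Dgat1, of triglyceride synthesis, was at 159 ± 29.9 against 261 ± 23.4 (−0.74, adjusted p 0.0286). The last 3 were called in 2 of the 6 fits each, with adjusted p up to 0.0866 for Ppard and Furin and 0.131 for Dgat1.

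The interleukin 17 split was applied to these 5 genes as well. In CD4 T cells without a UMI of the interleukin 17 genes, Acsl4 (95.6 ± 15 against 106 ± 9.56), Dgat1 and Gpat3 overlapped between groups. Ppard (37.1 ± 2.03 against 47.1 ± 3.17) did not overlap there, nor did Furin, whose nearest libraries were at 65.3 and 65.5, beside 18% of genes in these cells. In cells with such a UMI the 5 did not overlap either, Furin for example at 338 ± 80.7 against 639 ± 26.5. Since the 5 were chosen as called lower in CD4 T cells as a whole, and the cells by genes that differed between groups, this count is a description.

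The remaining pathway calls lay in other cells. Fabp3, another fatty acid binding protein, was higher in alveolar type 1 cells, at 32.0, 24.6 and 18.5 against 7.27, 2.82 and 3.96 CPM (2.55, SE 0.43, edgeR adjusted p 0.0189), in a type where 0.394% of genes were called. It rested on 48 and 16 UMIs in cells with a median of 1520 and 1898 UMIs and was called in 3 of the 6 fits. Summed alveolar type 2 markers in these cells ranged from 277 to 1292 against 212 to 989.8, which overlapped, with 1 of 6 higher without overlap. The part of these markers in the result was not tested. Ppargc1a, a coactivator of oxidative metabolism, was lower in peribronchial fibroblasts, at 12.1 ± 3.48 against 30.8 ± 6.98 (−1.27, adjusted p 0.0414), where 1.1% of genes were called, and it was called in 1 of the 6 fits.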

How the data were processed

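The authors deposited raw UMI counts per gene and barcode, written by Cell Ranger 8.0.1 per the submitters' processing notes, without normalization. The build mm10 is named there too.

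Retained were barcodes with 300 or more genes, 500 or more UMIs and a mitochondrial share of at most 15%. No doublet caller was run; cells scoring at least 0.35 for a type of another family were left unassigned. A cell was assigned to the type with the best marker score if that was at least 0.45 and led by 0.08. Within 0.05 of these limits lay 14.5% of general capillary, 34.9% of venous, 25.3% of CD4 T and 5.25% of pericyte cells. Counts were summed per library and type and tested with edgeR 4.0.16 (filterByExpr, TMM, quasi-likelihood, Benjamini-Hochberg) in R 4.3.3, group alone. The fit was also run on simulated counts modelled on general capillary cells. There it called 61 of 66 genes changed 4-fold, 45 of 67 changed 2-fold and 30 of 67 changed 1.5-fold. Beside these right calls stood 14 false calls, in 15945 genes. Standard errors are approximate, from the F statistic. Named are the 10 members, called pathway genes and the 3 most similar profiles.

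The members and lists were chosen with earlier results of these data known. Each library is labelled as a numbered sample of lung from a mouse of its group, and was taken as a separate mouse. Permutation tests were exact and two-sided. Alternatives were RLE or library-size scaling, DESeq2 1.42.0, no count filter, a replicate block, each library left out, stricter cells or gate, and cells above the 95th UMI percentile left out. Splits of capillary and CD4 T cells, fits of small types and tests between types were added after the data were seen.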

Additional observations from a re-analysis of the deposited data

Results flagged for a closer look

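The difference between groups itself differed between cell types in 2 of 160 tests of a member (10 members in 16 comparisons). Each was an interaction with the library as a block, with p adjusted over all genes within its own comparison only. For Lpl the group effect in general capillary cells exceeded that in peribronchial fibroblasts by 1.19 on the log2 scale (adjusted p 0.0115), in a comparison that called 0.341% of 15814 genes. The second lowest adjusted p for Lpl over the 16 comparisons was 0.182, and Lpl lay below the count filter within alveolar type 1, CD4 T and CD8 T cells. For Fabp4 the effect in general capillary cells minus that in pericytes was −5.88 (adjusted p 0.0351), where 0.512% of 15245 genes were called. Fabp4 in pericytes was at 54.5, 0 and 11.6 CPM across the libraries labelled p16-DTR against 1.78, 0 and 0.949 in controls, below the count filter within pericytes, so the value rests mostly on p16-DTR replicate 1 and on a gene not tested in pericytes alone.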

How the results depend on the processing

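The number of member calls within types moved with the test and with single libraries. Calls of a member as higher in a type numbered 1 in the reported fit, 2 with RLE scaling, 2 with the stricter cell filter, 7 with DESeq2, 14 without the count filter and 0 with the replicate number as a block, and 0 to 2 without 1 library. Calls as lower numbered 1, 2 with the replicate block and 0 to 1 without 1 library. Over all cells DESeq2 called 1 member, against 0. Pathway calls were 7, 37 with DESeq2, 62 without the count filter, 14 with the replicate block and 3 to 14 without 1 library. Over all genes, calls within types numbered 1177 in the reported fit, 5457 with DESeq2, 7563 without the count filter and 1646 with the replicate block. They numbered 1224 with RLE scaling and 1182 with the stricter cell filter. Lpl in general capillary cells kept its direction under all 14 alternatives, with log2 fold changes of 0.79 to 1.12 without 1 library, and lost its call with the replicate block (0.95, adjusted p 0.112). Lpl in pericytes was not called under any of the 13 alternatives that gave a value (1.14 to 1.91 without 1 library). Leaving out the cells of most UMIs gave none for it. Its thinned share differed by 3.14 percentage points, by 0.98 when thinned to 2000 UMIs, by 7.71 without thinning and by 2.09 to 4.91 without 1 library. None of the results compared across these alternatives reversed. Lpl in small types, Acsl1, Vldlr, Cd36 in B cells, the splits and the tests between types were not among them.

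The replicate numbers were not taken as pairs, on mixed evidence. Deviations of same-numbered libraries correlated at 0.44, −0.08 and 0.40 over all cells, and those of differently numbered libraries at −0.53 to 0.20. In general capillary cells the same-numbered libraries correlated at −0.06, −0.41 and 0.01. Under the block Pparg in alveolar fibroblasts was called lower (−0.64, adjusted p 0.0294). With library size as scaling 37.4% of all calls were higher, against 44.9%. Calls over all genes numbered 1177 in the reported fit. Without 1 library they ranged from 248 (without control replicate 1) to 1368 (without p16-DTR replicate 1). Alveolar macrophages, with as few as 14 cells in a library, fell under the cell minimum of the main test, and Lpl in pericytes rested on 66 UMIs. Types in rebuilt gates may differ from the study's own.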
